A study of Homo sapiens with 12 samples.

Results

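The report describes 10 of the 29696 genes listed for the melanoma cell line A375, namely DYNLRB1, DYNLL1, DYNLL2, DYNLT1, DYNLT3, DYNC1H1, DYNC1I2, DYNC1LI1 and DYNC1LI2 of cytoplasmic dynein and DCTN1 of its cofactor dynactin. The genes were chosen by name, with their fold changes between the same input libraries already known, and DYNLRB1 stands first because it had the largest fold change of the 10. Their differences between the groups are therefore given as a description, with no p-value. How many of them passed the test applied to all genes is given only as a count, from which nothing is read. All 10 passed the filter on low values, a mean of at least 0.5 FPKM (fragments scaled for transcript length and library size) over the 6 input libraries, as did 12985 genes in all.

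The study asked how the m6A demethylase ALKBH5 acts in melanoma. A375 cells, a human line grown from a skin melanoma, were infected with lentivirus carrying a hairpin against ALKBH5 (shALKBH5) or a control hairpin (shCtrl, called Scramble in the methods), and the sequenced hairpin is not named. Each group had 3 input libraries of fragmented poly(A) RNA and 3 libraries of the same kind of RNA after precipitation with an antibody against m6A (IP). By the methods, the cells for RNA-Seq were collected 48 h after infection, and the general lentiviral protocol selects infected cells with puromycin for 3 days. Whether the sequenced cells had puromycin is not said, and the labels name the sequencer of the MeRIP-Seq methods, not that of the RNA-Seq methods, so the time of collection may not apply to these input libraries. The methods also state in general that experiments were done 3 times independently, but neither they nor the labels say that the 3 libraries of a group were separate infections, so the spread between them may be technical. Only 1 cell line was sequenced. The sum of FPKM per input library lay between 221946 and 223231 with shALKBH5 and between 212760 and 218966 with shCtrl. Read counts were not used here, and the depth of each library is unknown.

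Cytoplasmic dynein is the motor that carries cargo along microtubules towards their minus ends, and in dividing cells it acts at kinetochores, the cell cortex and the spindle poles. A pair of heavy chains holds the motor and the microtubule-binding stalk. Intermediate chains and light intermediate chains bind the tail of the heavy chains, and light chains of the roadblock, LC8 and Tctex families bind the intermediate chains. Dynactin and an activating adaptor join the motor to its cargo and switch on long-range movement, and LIS1 with NDE1 or NDEL1 helps to assemble the active complex. In pigment cells dynein moves melanosomes towards the cell centre.

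The targeted gene was examined first, as a check of the labels. In the order of the replicate numbers, ALKBH5 had 3.39, 3.92 and 3.12 FPKM under its own hairpin against 19.3, 17.8 and 17.6 under the control hairpin, so the libraries split as their labels state. The log2 fold change was -2.36 (SE 0.0887, adjusted p = 1.28e-06, limma with Benjamini-Hochberg adjustment, lower in 3 of 3 shALKBH5 libraries).

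DYNLRB1 (ENSG00000125971, chromosome 20, 34516409 to 34540958, plus strand) encodes roadblock light chain 1, which binds the intermediate chain and has been described as a partner of TGF-beta receptors. The shALKBH5 libraries had 52.4, 52.6 and 52.6 FPKM, again by replicate number. The shCtrl libraries had 8.25, 8.32 and 7.98. All shALKBH5 libraries were high and all shCtrl libraries low, with a narrow spread inside each group. The means were 52.5 ± 0.120 FPKM and 8.18 ± 0.178 FPKM (SD, n = 3 each), a ratio of 6.42 and a log2 fold change of 2.67 (SE 0.0384) on the log2(FPKM + 0.1) scale, and 2.65 to 2.68 when single libraries were dropped. Of the 12985 tested genes, 31 had a higher log2 fold change. By level, DYNLRB1 stood at the 68.4th percentile of the tested genes in shCtrl cells and at the 94.6th in shALKBH5 cells. Its closest paralogue, DYNLRB2, was between 0.0668 and 0.129 FPKM in the shALKBH5 libraries and was listed at 0 in shCtrl replicates 2 and 3 and at 0.0152 FPKM in replicate 1, so nearly all roadblock FPKM came from DYNLRB1.

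The sequence before the start of DYNLRB1 is shown because the gene carries an m6A peak at its 5' end, with those of DYNLT3, the member with the next largest fold change, and DYNLL1, the most abundant member, for comparison. Capitals mark the letters searched for on both strands. The coordinates are on GRCh38. The stretches of DYNLRB1 and DYNLT3 end just before the deposited gene start, and that of DYNLL1 just before the RefSeq start at 120469842.
DYNLRB1, chr20:34516279-34516408, plus strand: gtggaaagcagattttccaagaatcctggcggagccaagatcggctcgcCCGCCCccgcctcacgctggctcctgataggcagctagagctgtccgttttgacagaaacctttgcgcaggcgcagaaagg
DYNLT3, chrX:37847572-37847701, minus strand: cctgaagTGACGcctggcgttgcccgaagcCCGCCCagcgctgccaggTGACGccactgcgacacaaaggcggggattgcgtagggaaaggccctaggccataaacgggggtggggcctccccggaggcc
DYNLL1, chr12:120469712-120469841, plus strand: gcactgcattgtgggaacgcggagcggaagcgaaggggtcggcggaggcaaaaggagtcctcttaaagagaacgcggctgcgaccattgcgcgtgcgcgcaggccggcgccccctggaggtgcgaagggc

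RefSeq promoter entries matched 9 of the 10 genes, with 14 transcription starts, and DYNLL2 was the other gene. The GC box letters GGGCGG were in 10 of these 14 windows of 250 bases before a start and in 42.6% of 35116 windows of all genes. TGACG, part of the cyclic AMP response element, was in 4 of the 14 and in 21.2% of all windows, and stood at positions -123 and -82 from the start of DYNLT3. The whole element TGACGTCA, which contains TGACG, was in 1 of the 14 (1.65% of all). The E-box CACGTG was in 1 of the 14 (6.34% of all), CCAAT in 2 (32.0%) and TATAAA in 1 (10.7%). DYNLRB1, with its RefSeq start at 34516422, held GGGCGG on the opposite strand at position -94 and none of the other promoter letters searched. DYNLL1 held GGGCGG on the opposite strand at -248 and -227 from its start at 120469842, outside the printed bases. From a further start of DYNLL1, at 120496113, TGACG stood at -95 on the opposite strand. CCAAT stood at -119 and -88 and GGGCGG at -67 and -47 from that start. These matches describe letters in a window, and no binding was measured.

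DYNLL1 and DYNLL2 encode the LC8 light chains, nearly identical small proteins that bind many partners besides dynein. DYNLL1 (chromosome 12, 120469850 to 120498493, plus strand) was the most abundant of the 10 genes in both groups, at 68.1, 69.9 and 66.6 FPKM under shALKBH5 against 81.7, 82.8 and 85.9 under shCtrl. Its values were lower in every shALKBH5 library, with a log2 fold change of -0.29 (SE 0.0377). DYNLL2 (chromosome 17, 58083419 to 58095542, plus strand) went the other way, with 11.8, 11.6 and 12.2 FPKM in the shALKBH5 replicates and 5.45, 5.57 and 5.09 FPKM in the shCtrl replicates. Its means were 11.9 ± 0.329 and 5.37 ± 0.254 FPKM (SD, n = 3 each), a log2 fold change of 1.13 (SE 0.0556).

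DYNLT1 and DYNLT3 encode the Tctex light chains. DYNLT3 (chromosome X, 37836757 to 37847571, minus strand) was at 13.2, 10.9 and 12.8 FPKM under shALKBH5 against 3.93, 5.37 and 4.43 under shCtrl. The groups did not overlap, and the log2 fold change was 1.41 (SE 0.123), and 1.31 to 1.53 when single libraries were dropped. DYNLT1 (chromosome 6, 158636474 to 158644743, minus strand) was at 17.1, 16.8 and 15.98 FPKM with the ALKBH5 hairpin and at 13.95, 15.1 and 15.8 FPKM with the control hairpin. The nearest values of its groups, 15.98 and 15.8 FPKM, almost met, and its log2 fold change of 0.15 (SE 0.0579) was small beside that of DYNLT3.

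The heavy chain, which holds the motor itself, hardly differed. DYNC1H1 (chromosome 14, 101964573 to 102056443, plus strand) was at 18.4, 18.5 and 17.8 FPKM under shALKBH5 against 17.8, 19.1 and 18.6 under shCtrl, so the groups overlapped, and the log2 fold change was -0.02 (SE 0.0450). DYNC1I2 (chromosome 2, 171687409 to 171750158, plus strand), the more abundant intermediate chain gene, was between 2.50 and 2.82 FPKM in the shALKBH5 libraries and between 2.12 and 2.62 FPKM in the shCtrl libraries, which overlapped as well (log2 fold change 0.17, SE 0.0975). That fold change was 0.09 without shCtrl replicate 1, 0.24 without shCtrl replicate 2 and 0.09 after median-ratio rescaling of all 6 libraries. DYNC1I1, the paralogue known mainly from neurons, was at 0.677 ± 0.0295 FPKM in shALKBH5 and 0.495 ± 0.0996 FPKM in shCtrl cells (SD, n = 3 each). Its adjusted p was 0.0874 in limma with Benjamini-Hochberg adjustment (log2 fold change 0.40, SE 0.177), and without the trend in the variance it was 0.0358, with a range of 0.0358 to 0.202 over the alternatives. The log2 fold change of DYNC1I1 was 0.17 with a pseudocount of 1, and 0.28 to 0.52 when single libraries were dropped.

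The light intermediate chains, which link dynein to its adaptors, leaned in opposite directions. DYNC1LI1 (chromosome 3, 32525974 to 32570858, minus strand) was at 4.73, 5.20 and 4.55 FPKM under shALKBH5 against 4.73, 6.78 and 5.95 under shCtrl, and the groups overlapped. DYNC1LI2 (chromosome 16, 66720893 to 66751609, minus strand) was at 10.8, 10.7 and 9.85 FPKM against 7.79, 9.58 and 9.16 FPKM, with no overlap. The log2 fold changes were -0.25 (SE 0.128) and 0.25 (SE 0.0852). With each library left out in turn they ran from -0.39, without shCtrl replicate 1, to -0.14, without shCtrl replicate 2, for DYNC1LI1 and from 0.16, without shCtrl replicate 1, to 0.31, without shCtrl replicate 2, for DYNC1LI2.

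DCTN1 (chromosome 2, 74361154 to 74392087, minus strand) encodes the large dynactin subunit that binds both microtubules and the dynein intermediate chain. It was at 23.4, 23.1 and 24.5 FPKM under shALKBH5 against 29.8, 28.0 and 28.1 under shCtrl. Every shALKBH5 library was lower than every shCtrl library, with a log2 fold change of -0.27 (SE 0.0454).

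**Figure D1:**
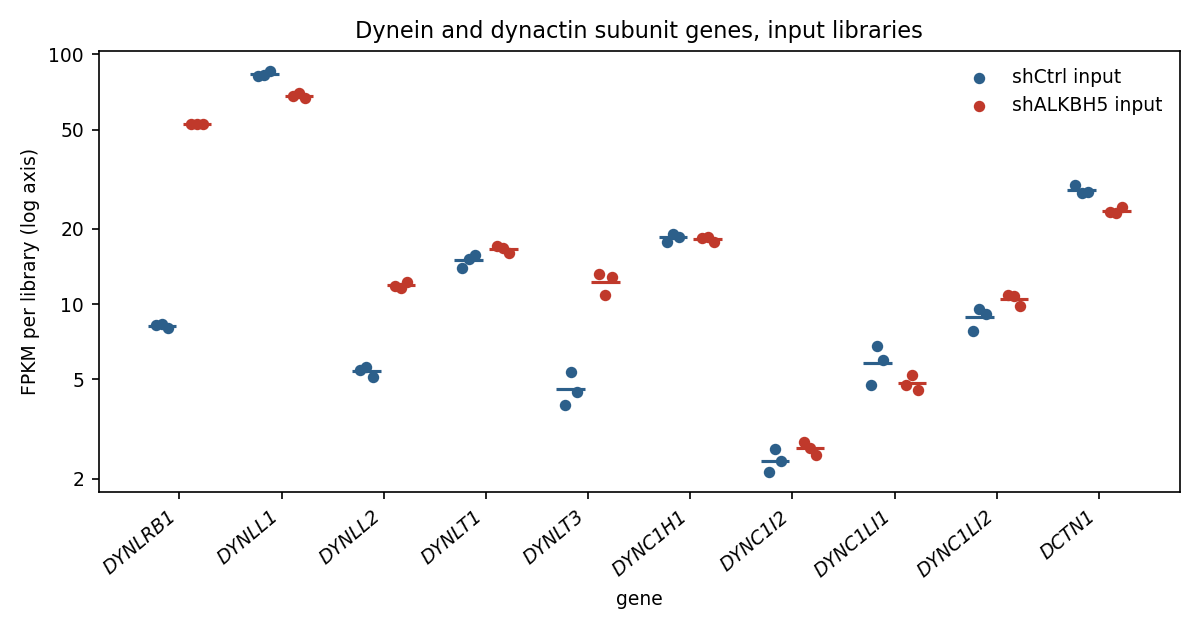
FPKM of the 10 genes in each input library on a log axis, with shCtrl in blue, shALKBH5 in red, a point per library and a line at each group's mean (n = 3). DYNLRB1 goes from 8.18 to 52.5 FPKM, DYNLL2 and DYNLT3 are also set apart, and DYNC1H1 overlaps between the groups.

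Across all genes, 7917 of the 12985 tested (61.0%) had an adjusted p under 0.05 (limma, Benjamini-Hochberg), 4509 of them higher (34.7%) and 3408 lower (26.2%) in shALKBH5 cells. Among the 10 genes the same rule counted 6, and 5 to 7 over the alternatives. In 7 of the 10 the groups did not overlap, against 8700 tested genes (67.0%). Nothing is read from these counts, since the contrast was known when the genes were picked. The median log2 fold change was 0.16 over the 10 genes and 0.09 over all tested genes. Rescaling each library by its median ratio lowered the fold changes of all genes by about the same amount, to a median of 0.01, and turned the balance of calls to 3777 higher and 3903 lower. The signs of the 10 genes did not change. Rescaling gave 2.59 for DYNLRB1, -0.37 for DYNLL1, 0.08 for DYNLT1 and -0.10 for DYNC1H1.

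The order of the levels changed between the groups. In shCtrl cells DYNLL1 was followed by DCTN1, DYNC1H1, DYNLT1, DYNC1LI2, DYNLRB1, DYNC1LI1, DYNLL2, DYNLT3 and DYNC1I2. There DYNC1LI2 (8.84 ± 0.940 FPKM) and DYNLRB1 (8.18 ± 0.178 FPKM), and DYNC1LI1 (5.82 ± 1.03 FPKM) and DYNLL2 (5.37 ± 0.254 FPKM), differed by less than their spread (SD, n = 3 each). In shALKBH5 cells DYNLRB1 stood next to DYNLL1, ahead of DCTN1, DYNC1H1 and DYNLT1, followed by DYNLT3 (12.3 ± 1.24 FPKM) and DYNLL2 (11.9 ± 0.329 FPKM), which differed by less than their spread. DYNC1LI2, DYNC1LI1 and DYNC1I2 came last in that order.

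Set against the heavy chain in the same library, DYNLRB1 went from 0.443 ± 0.0189 to 2.88 ± 0.0625 times the FPKM of DYNC1H1 (SD, n = 3 each). The same ratio went from 0.291 ± 0.0169 to 0.652 ± 0.0311 for DYNLL2 and from 0.247 ± 0.0307 to 0.675 ± 0.0753 for DYNLT3. For DYNLL1 it went down from 4.51 ± 0.158 to 3.74 ± 0.0380, and for DCTN1 from 1.55 ± 0.115 to 1.30 ± 0.0667. The summed FPKM of the 10 genes was 181 ± 4.50 in shCtrl and 221 ± 1.74 in shALKBH5 cells. Without DYNLRB1 the sums were 172 ± 4.57 and 169 ± 1.84 FPKM (SD, n = 3 each), so the groups differed in that sum by less than the spread of the shCtrl libraries.

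Within each family the balance of paralogues moved. DYNLL1 made up 93.7, 93.7 and 94.4% of the LC8 FPKM in the shCtrl replicates and 85.2, 85.8 and 84.5% in the shALKBH5 replicates. DYNLT1 made up 78.0, 73.8 and 78.1% of the Tctex FPKM in shCtrl and 56.4, 60.7 and 55.5% in shALKBH5 cells. For DYNC1LI1 the share of the light intermediate chains was 37.8, 41.4 and 39.4% against 30.4, 32.7 and 31.6%. DYNLL2 and DYNLT3, with the smaller shares in control cells, gained share, and so did DYNC1LI2, which already had the larger one. DYNLRB1 was 7.28, 7.10 and 6.70% of the summed FPKM of the 5 light chain genes in the shCtrl replicates and 32.2, 32.5 and 32.8% in the shALKBH5 replicates. The summed light chain FPKM was 117 ± 3.03 and 161 ± 1.21 (SD, n = 3 each).

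**Figure D2:**
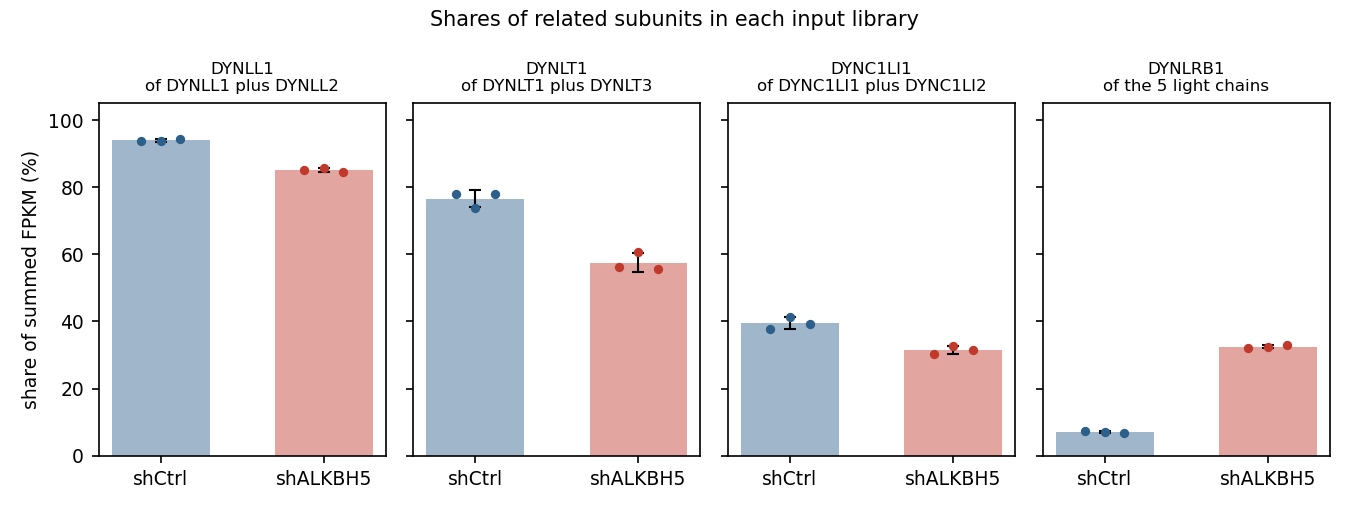
Share of summed FPKM, in percent, taken by DYNLL1, DYNLT1 and DYNC1LI1 within their paralogue pairs and by DYNLRB1 within the 5 light chain genes. Bars are group means with SD (n = 3) and points are libraries, with shCtrl in blue and shALKBH5 in red, and DYNLRB1 goes from 7.03 to 32.5%.

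Some values could share reads with other genes. DYNLRB1 lies within 34363241 to 34540748 of chromosome 20, the span of ITCH on the same strand, for all but its last bases, and how the counting split shared exons is not given in the sources used here. ITCH, a ubiquitin ligase gene, was at 2.84, 2.31 and 2.26 FPKM in the shALKBH5 replicates and 2.49, 3.80 and 2.97 FPKM in the shCtrl replicates. Its adjusted p was 0.146 (limma, Benjamini-Hochberg, log2 fold change -0.30, SE 0.160), from 0.0418, without shCtrl replicate 1, to 0.383, without shCtrl replicate 2, over the alternatives. The log2 fold change was -0.44 and -0.14 in these fits, so it depended on single libraries. NRAV, an antisense RNA gene over DYNLL1, was at 2.86 ± 0.309 and 2.91 ± 0.0151 FPKM in shALKBH5 and shCtrl cells (SD, n = 3 each), and whether counting used the strand is not stated. Of the pseudogene entries, DYNC1I2P1 was at 0.832 and 1.13 FPKM on average in shALKBH5 and shCtrl cells, beside 2.66 and 2.36 FPKM for DYNC1I2, and whether they share reads was not tested, while DYNLL1P1, DYNLT3P1 and DYNLT3P2 had means of 0.0261 to 0.312 FPKM per group.

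The 10 tested genes nearest to DYNLRB1, 5 on each side, did not share its difference. Their median log2 fold change was -0.10, with EIF2S2, a translation initiation factor, lowest at -1.15 (SE 0.1005, adjusted p = 5.60e-05, limma with Benjamini-Hochberg adjustment) and TP53INP2, an autophagy gene, highest at 0.68 (SE 0.0634, adjusted p = 7.45e-05). AHCY was higher as well (0.38), RALY and CHMP4B were lower (-0.72 and -0.36), and ITCH, MAP1LC3A, PIGU, NCOA6 and GGT7 did not pass the test, the last 4 with log2 fold changes of -0.07, -0.11, 0.06 and -0.09. PIGU passed it after median-ratio rescaling (adjusted p = 0.0411, range over the alternatives 0.0411 to 0.384). When single libraries were dropped, MAP1LC3A ran from -0.10 to -0.03 and PIGU from -0.16 to -0.08. NCOA6 ran from 0.03 to 0.08 and GGT7 from -0.14 to -0.02 in the same fits. After median-ratio rescaling NCOA6 had -0.02, a change of sign.

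The genes whose profile over the 6 libraries was most like that of DYNLRB1, by Euclidean distance of log2 values from each gene's own shCtrl mean, were LINC01992, ZP1 and NCEH1, at distances of 0.258, 0.341 and 0.358. LINC01992, a long noncoding RNA gene, averaged 2.32 and 0.285 FPKM in shALKBH5 and shCtrl cells. ZP1, an egg coat protein gene, averaged 3.91 and 0.546 FPKM, and NCEH1, a cholesterol ester hydrolase gene, 3.66 and 0.438 FPKM. Their log2 fold changes of 2.65, 2.64 and 2.81 depended on the pseudocount, and were 1.37, 1.66 and 1.69 with a pseudocount of 1, where that of DYNLRB1 was 2.54.

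Other genes of the dynein pathway, and genes linked to it, were examined through 8 lists, called the dynein lists here. Transport kinesins (15 tested), LC8 partners (7) and TGF-beta receptors and SMADs (6) are among them without being dynein machinery. In that order they had 1, 2 and 1 genes higher and 6, 2 and 4 lower at an adjusted p under 0.05. The counts of each list are given below. Together the 8 lists held 65 tested genes. Of these, 41 (63.1%) had an adjusted p under 0.05, beside 61.0% of all tested genes, with 15 higher and 26 lower and a median log2 fold change of -0.12, beside 0.09 for all. The split moved with the scaling, to 10 higher and 30 lower after median-ratio rescaling, and the number higher moved most without shALKBH5 replicate 3, to 9. All adjusted p-values here are from limma with Benjamini-Hochberg adjustment over the 12985 genes. The lists were chosen with earlier results of these data known, so their counts and p-values are no independent support.

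The remaining cytoplasmic dynein subunits were mostly those of dynein-2, the motor of intraflagellar transport in cilia. Of 6 tested, 1 was higher and 2 were lower, with a median of 0.16. WDR34, a dynein-2 intermediate chain gene, fell from 24.4 ± 2.25 to 9.73 ± 0.650 FPKM (SD, n = 3 each), a log2 fold change of -1.32 (SE 0.0791, adjusted p = 9.60e-06, limma). DYNC2LI1, its light intermediate chain, rose by 0.71 (SE 0.148, adjusted p = 0.00459, limma), and by 0.38 with a pseudocount of 1. TCTEX1D2, a Tctex-type light chain of dynein-2, was lower, at -0.46 (SE 0.133, adjusted p = 0.0187, limma), and at -0.30 with a pseudocount of 1. That call was lost without shALKBH5 replicate 2 or 3 or shCtrl replicate 1 or 3, at adjusted p-values of 0.0560 to 0.0638, in a range of 0.00300 to 0.0638 over the alternatives.

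Dynactin moved in both directions. Of its 11 other subunit genes, all tested, 3 were higher and 6 lower, with a median of -0.15. DCTN6, of the pointed-end complex, fell from 4.68 ± 0.224 to 1.86 ± 0.203 FPKM (log2 fold change -1.29, SE 0.0947, adjusted p = 2.45e-05, limma). DCTN5 and DCTN4, of the same end, rose by 0.51 (SE 0.0573, adjusted p = 0.000193, limma) and 0.56 (SE 0.103, adjusted p = 0.00239, limma). CAPZA1, of the capping protein at the barbed end, fell from 25.998 ± 3.27 to 14.1 ± 0.621 FPKM (log2 fold change -0.87, SE 0.0907, adjusted p = 0.000136, limma, SD, n = 3 each). The pointed-end genes thus did not move together.

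The LIS1 and NDE genes split between paralogues. NDE1 and PAFAH1B1, which encodes LIS1, were lower, at 6.05 ± 0.126 against 9.05 ± 0.285 FPKM and 4.99 ± 0.274 against 7.32 ± 0.612 FPKM (SD, n = 3 each). Their log2 fold changes were -0.57 (SE 0.0508, adjusted p = 6.07e-05, limma) and -0.54 (SE 0.0773, adjusted p = 0.000666, limma). NDEL1, the paralogue of NDE1, was higher, at 6.49 ± 0.183 against 3.26 ± 0.282 FPKM (log2 fold change 0.97, SE 0.0762, adjusted p = 3.35e-05, limma). The 4 tested genes of the list had a median of -0.26.

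Of 11 tested activating adaptors, 6 were higher and 1 was lower, with a median of 0.26. MAPK8IP3, the adaptor JIP3 of axonal transport, rose by 0.95 (SE 0.0617, adjusted p = 1.39e-05, limma), and TRAK2, a mitochondrial adaptor, by 0.68 (SE 0.0885, adjusted p = 0.000430, limma). RAB11FIP3, which links dynein to recycling endosomes, was the 1 lower, at -0.19 (SE 0.0526, adjusted p = 0.0175, limma), and it lost the call in 3 of 13 alternatives, among them the fits without shALKBH5 replicate 1 or 2 (adjusted p = 0.0657 and 0.0598, range over the alternatives 0.00800 to 0.0657).

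Of 5 tested genes that recruit dynein in mitosis, 3 were lower and none higher, with a median of -0.30. CENPF, a kinetochore protein gene that peaks late in the cell cycle, went from 1.89 ± 0.498 to 0.345 ± 0.114 FPKM (SD, n = 3 each), a log2 fold change of -2.16 (SE 0.258, adjusted p = 0.000271, limma) that was -1.09 with a pseudocount of 1. SPDL1, the Spindly adaptor, had -0.58 (SE 0.158, adjusted p = 0.0147, limma), and -0.38 with a pseudocount of 1. Fewer dividing cells and less of these RNAs per cell cannot be told apart in bulk libraries.

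Among the kinesins and their light chains that work in transport towards plus ends, 1 of 15 tested was higher and 6 were lower, with a median of -0.20. KLC2, a kinesin-1 light chain gene, rose from 9.48 ± 0.333 to 21.2 ± 0.782 FPKM (log2 fold change 1.15, SE 0.0497, adjusted p = 2.18e-06, limma). KIF3C fell from 13.1 ± 0.474 to 4.47 ± 0.265 FPKM (log2 fold change -1.53, SE 0.0616, adjusted p = 1.62e-06, limma, SD, n = 3 each), and KIF1B fell by 0.62 on the log2 scale (SE 0.0936, adjusted p = 0.000865, limma).

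The LC8 partners and the TGF-beta genes were listed because LC8 and DYNLRB1 are known to bind some of them. Like the other lists, they were chosen with earlier results of these data known. Of 7 tested LC8 partners, 2 were higher and 2 lower, with a median of 0.13. ATMIN, a zinc finger factor known to drive DYNLL1 transcription, had a log2 fold change of 0.39 (SE 0.109, adjusted p = 0.0161, limma), and an adjusted p of 0.0528 with no filter, the highest of its alternatives, the lowest being 0.00550. BCL2L11 and BMF, cell death genes whose proteins LC8 holds at the cytoskeleton, had 0.30 (adjusted p = 0.0263, limma) and -0.31 (adjusted p = 0.0494, limma). With a pseudocount of 1 these log2 fold changes were 0.19 and -0.19. BCL2L11 lost the call in 7 of 13 alternatives, among them median-ratio rescaling (adjusted p = 0.0758, limma), and BMF in 8, among them no filter (adjusted p = 0.0917) and a filter at 1 FPKM (adjusted p = 0.0533). Both lost it without any 1 of the shALKBH5 replicates or without shCtrl replicate 1 or 2, where BCL2L11 had adjusted p-values of 0.0520 to 0.0840 and BMF of 0.0682 to 0.148, in ranges of 0.00834 to 0.0840 and 0.0212 to 0.148 over the alternatives.

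Of the 6 TGF-beta receptor and SMAD genes, all tested, 1 was higher and 4 were lower, with a median of -0.50. TGFBR2, the type II receptor gene, fell from 18.5 ± 2.02 to 3.396 ± 0.126 FPKM (log2 fold change -2.41, SE 0.0851, adjusted p = 1.01e-06, limma, SD, n = 3 each), about as far as DYNLRB1 differed upwards. TGFBR1 had -1.04 (SE 0.145, adjusted p = 0.000611, limma), and -0.53 with a pseudocount of 1. SMAD4, the 1 higher, had 0.30 (SE 0.110, adjusted p = 0.0455, limma). It lost the call in 8 of 13 alternatives, among them median-ratio rescaling (adjusted p = 0.0811, limma), no filter (adjusted p = 0.0952) and the fits without any 1 of the shALKBH5 replicates or without shCtrl replicate 1 or 3 (0.0842 to 0.122), in a range of 0.0109 to 0.122 over all of them.

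**Figure D3:**
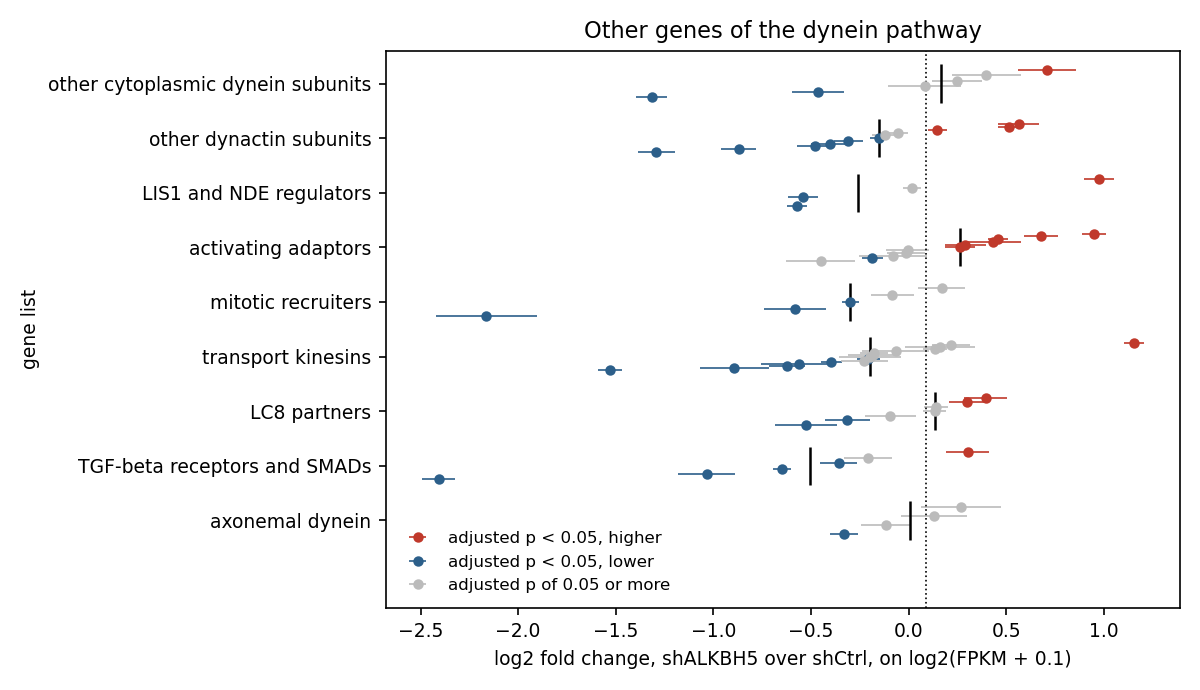
Log2 fold change (shALKBH5 over shCtrl, on log2(FPKM + 0.1)) of each tested gene in the lists, with bars of 1 SE, black ticks at list medians and a dotted line at the median of all tested genes (0.09). Genes higher at an adjusted p under 0.05 are red, lower ones blue and the rest grey, and TGFBR2 (-2.41) and CENPF (-2.16) lie farthest left.

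Axonemal dynein, the motor of beating cilia, served as a set that A375 cells were not expected to use. Of 15 listed genes with values, 4 passed the filter and 1 of these had an adjusted p under 0.05, DNAL4 (log2 fold change -0.33, SE 0.0721, adjusted p = 0.00543, limma), a light chain gene related to LC8. The ciliated cell marker FOXJ1 was between 0 and 0.0730 FPKM.

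The cell type was checked against marker genes. Of the melanocyte lineage list 7 genes were analysed here, and SOX10 was the most abundant at 181 ± 0.754 FPKM in shALKBH5 and 184 ± 6.81 FPKM in shCtrl cells (SD, n = 3 each). S100B was at 82.1 ± 3.03 and 32.9 ± 1.35 FPKM, and MITF at 1.26 ± 0.332 and 0.777 ± 0.203 FPKM. The pigment genes PMEL, TYRP1, DCT and TYR were each below 0.7 FPKM in every library, and TYR was listed at 0 in all 3 shCtrl libraries, so the pigment markers were low in this line. PMEL, the highest of them, averaged 0.611 ± 0.116 FPKM in shALKBH5 and 0.237 ± 0.0629 FPKM in shCtrl cells (SD, n = 3 each). The summed level of the list was 262 to 267 FPKM in the shALKBH5 and 214 to 225 FPKM in the shCtrl libraries. Of the keratinocyte markers KRT10 reached 8.17 ± 0.254 FPKM in shCtrl and 10.8 ± 0.458 FPKM in shALKBH5 cells. KRT14 went the other way, at 0.961 ± 0.122 and 0.369 ± 0.144 FPKM in shCtrl and shALKBH5 cells, and KRT1 and KRT5 were not analysed here. The fibroblast, endothelial and immune markers had no gene at a mean of 1 FPKM.

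For m6A, the authors called peaks on IP against input, and listed them once for each group without library values, so peaks have no replicate check, and the folds were made separately for each group. The 10 genes held 23 of 46039 peaks in the shALKBH5 list and 23 of 44304 in the shCtrl list. Under the stricter rule, a fold of 2 or more with an FDR no higher than 0.01, there were 15 and 19, and over all genes 30643 and 30294 peaks. Of the 23 peaks, 19 in the shALKBH5 list (82.6%, exact 95% binomial interval 61.2 to 95.0%) and 20 in the shCtrl list (87.0%, 66.4 to 97.2%) shared 1 bp or more with a same-strand peak of the other list, whichever gene that peak was assigned to. Of these 20, 1 peak of DYNLRB1 met only peaks assigned to ITCH. The intervals take peaks as independent, although several lie in the same gene, and they measure no spread between libraries. Over all peaks the shares were 78.1 and 81.3%. The authors' annotation put 12 of the shCtrl peaks in 3'UTRs, 5 in 5'UTRs and 6 in other exons, and 8, 7 and 7 of the shALKBH5 peaks, with 1 more in an intron. The 3'UTR thus held 52.2% and 34.8% of the peaks of these genes, and 46.2% and 45.5% of all peaks.

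DYNLRB1 had 3 peaks in shCtrl and 2 in shALKBH5 cells. The peak at its 5' end spanned chr20:34516409-34516649, the first 241 bp of the gene, in both lists, with a fold enrichment of 2.57 in shCtrl and 2.19 in shALKBH5 cells. Its log10 p was -24.1 and -140, so at about the same fold the score was far larger in the group with more of the RNA. The letters GGACT, a common core of m6A sites, begin at base 5 of that peak, position -9 from the RefSeq start. They are in the RNA only if it begins before the RefSeq start, as at the deposited gene start.
DYNLRB1, chr20:34516403-34516427, plus strand: gaaaggcacaGGACTcgctaagtgt
GGACT was in 1 of the 14 windows of these genes (63 bases, from 13 before to 50 after the RefSeq start, transcribed strand) and in 6.12% of those of all genes. The 13 bases were set by the distance between the deposited and RefSeq starts of DYNLRB1, whose site at -9 is the 1 match. The match thus depends on a window fitted to this gene, and in other genes these bases may not be in the RNA. GGACA and GGACC were in none of the 14 and in 6.21 and 6.58% of all. The peak caller does not place m6A at a base, so whether this site was methylated was not tested.

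The 3'UTR peaks of DYNLRB1 differed between the lists. The shCtrl list had peaks at chr20:34530028-34530298 (fold enrichment 4.27) and chr20:34531137-34540958 (3.06, 9822 bp with introns), and the shALKBH5 list had only the last 181 bp, chr20:34540778-34540958, with a fold enrichment of 1.70. Over the same stretch of the same strand the shALKBH5 list gave ITCH 3 peaks, 1 of them at chr20:34526280-34530358 with a fold enrichment of 8.69 and the other 2 at 1.14, and the shCtrl list gave ITCH 1 at 1.19. The ITCH peak of 4079 bp covers the whole of the first shCtrl 3'UTR peak of DYNLRB1. Peaks assigned to either gene there cannot be told apart, so no change in the 3'UTR m6A of DYNLRB1 is drawn from the lists.

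DYNLL2 had the highest fold enrichments of the 10 genes, 103 in shALKBH5 and 74.1 in shCtrl cells at chr17:58083419-58089995 and chr17:58083419-58090025, which the annotation calls 3'UTR although they begin at the start of the gene. Its next peak, at chr17:58090115, had 7.27 and 10.9. DYNLL1 had 4 peaks in each list, with 4.56 and 4.75, 2.61 and 2.53, 15.9 and 13.4, and 4.42 and 5.00 in shALKBH5 and shCtrl cells, and antisense peaks of NRAV lay over the first 2 of these in both lists. Each peak of the LC8 pair thus overlapped 1 of the other list, with bounds that differed in 4 of the 6 pairs.

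Some peaks were listed for 1 group alone. DYNLT3 had a single peak, in the shALKBH5 list, in its 5'UTR from 192 to 402 bp after the gene's 5' end (chrX:37847169-37847379, fold enrichment 12.7, log10 FDR -7.62), in the group where its FPKM was higher, and a peak assigned to OTC on the other strand spans the gene in both lists. DYNC1LI1 had a 5'UTR peak only in the shALKBH5 list (chr3:32570227-32570858, 5.53, log10 FDR -26.3) and a 3'UTR peak only in the shCtrl list (chr3:32525974-32526154, 6.38, log10 FDR -2.61). DYNC1H1 lacked, in the shALKBH5 list, the 2 last 3'UTR peaks of the shCtrl list, of 8.30 and 10.2 with a log10 FDR of -2.47 and -3.05. DYNLT1 and DCTN1 each had 1 further shALKBH5 peak, of 11.0 and 9.80, with a log10 FDR of -1.56 and -1.65 that misses an FDR of 0.01, and an antisense peak of DCTN1-AS1 with the same fold covers that of DCTN1. A peak listed in 1 group says nothing of the signal below the caller's threshold in the other.

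Where a peak of these genes overlapped exactly 1 peak of the other list, and that peak no other, the folds could be set side by side. There were 18 such pairs, with the fold enrichment lower in shALKBH5 cells in 10 and higher in 8, and a median ratio of 0.930 (shALKBH5 over shCtrl, 0.525 to 2.43). Over all genes there were 22888 pairs, 53.7% lower in shALKBH5 cells, with a median ratio of 0.970. The lowest ratio was that of a DYNC1H1 3'UTR peak (7.35 against 14) and the highest that of a DYNC1LI1 exon peak of 271 bp that overlaps the end of a shCtrl peak of 20768 bp. DYNC1I2 at its 5' end had 4.67 against 3.52, DYNLT1 3.64 against 2.63, DYNC1LI2 4.11 against 3.69 and DCTN1 1.68 against 1.88. With no values per library, none of these differences could be set against a spread.

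**Figure D4:**
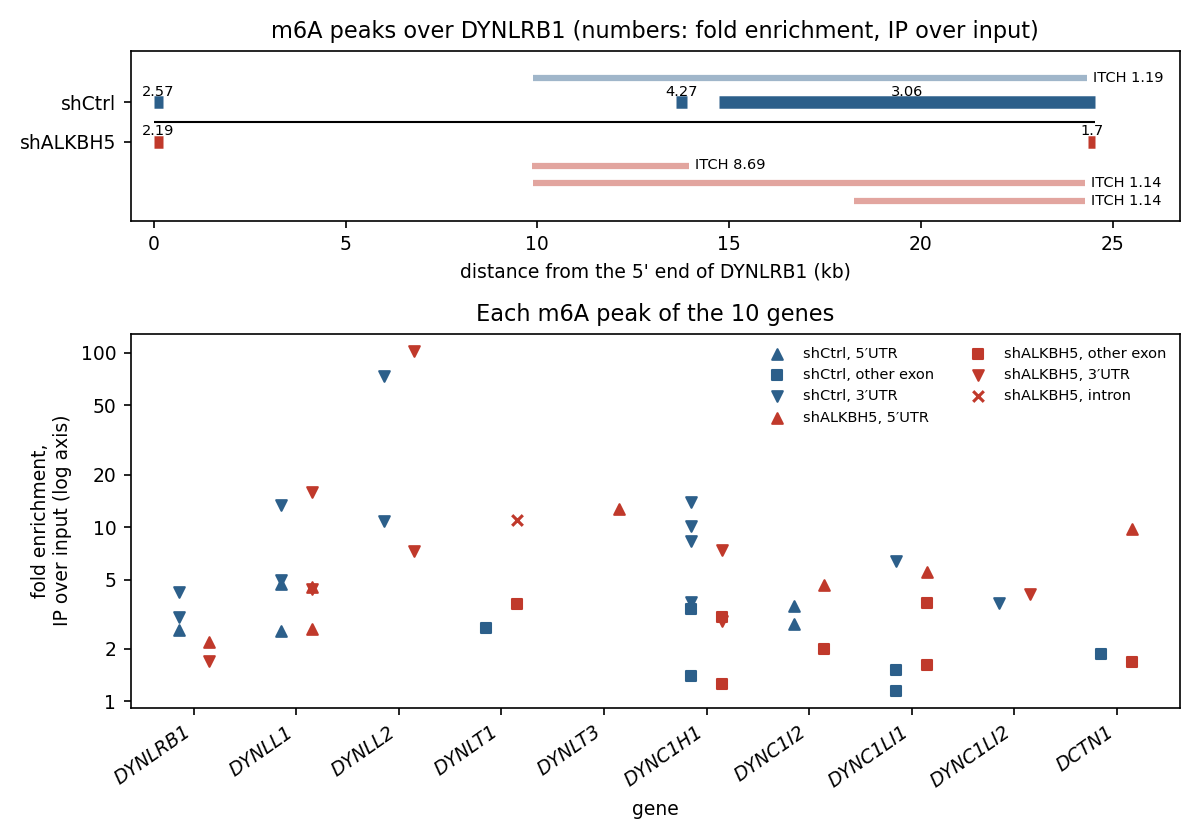
Top, m6A peaks over DYNLRB1 by distance from its 5' end in kb, shCtrl in blue above and shALKBH5 in red below the gene line, with fold enrichments and the ITCH peaks of the same strand in paler bars. Bottom, fold enrichment (log axis) of each peak of the 10 genes, with marker shape for the annotated region, from 1.15 to 103.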

How the data were processed

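Input RNA and m6A immunoprecipitated RNA of A375 cells were sequenced in 12 libraries, grouped by their titles. The authors deposited expression as FPKM for each of the 6 input libraries, with a fold change and p-value of their own that were not used. For m6A the authors deposited peaks of each group, with a fold enrichment (ratio of IP over input) and a log10 p and log10 FDR that were read as a score, the caller and the pooling of replicates being not given in the sources used here. Their table of differential peaks holds log2 fold changes and p-values and was not used, although it lists peaks of these genes. The submitters' processing notes name mm10, a mouse build, but the gene IDs are human and 21683 of 21699 matched gene spans overlap RefSeq on GRCh38. All 10 gene IDs matched the gene name table. Peak starts were changed to count from 1. The labels give the input libraries the sequencer that the methods name for MeRIP-Seq, not the one for RNA-Seq.

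The test of expression, first tested on simulated data, was a linear model from limma 3.58.1 (R 4.3.3) with moderated variances that follow a trend in level. It used log2(FPKM + 0.1), both sides, and genes averaging 0.5 FPKM or more, whose p-values were adjusted by Benjamini-Hochberg. Fold changes on this scale understate those of low genes. The low FPKM values showed no steps of whole reads (most common ratio between replicates 0.216% and 0.167% of low values), so depth is unknown, and no 2 libraries shared over 0.123% of values. With 3 libraries against 3 an exact permutation test cannot go below p = 0.1. The rest was run in Python 3.11.15, with scipy 1.17.1, pandas 2.3.3, matplotlib 3.10.9 and numpy 2.4.6.

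The members and lists were chosen with earlier results of these data known. By rule the text names the 10 genes, ALKBH5, DYNLRB2, DYNC1I1, PAFAH1B1, NDE1, NDEL1, from each list the 2 largest increases and 2 largest decreases among called genes with at least 1 FPKM in the higher group, the 3 genes of most like profile, the 5 tested neighbours on each side and pseudogene entries. NRAV, OTC and DCTN1-AS1 were named after the peaks over the members were seen. Alternatives tried were median-ratio rescaling, a pseudocount of 1 or 0.01, a filter at 1 FPKM or none, the replicate block, variances without a trend, each library left out, stricter peaks and a reciprocal overlap of 50%.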

Additional observations from a re-analysis of the deposited data

How the results depend on the processing

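The count of genes called ran from 6874 to 8231 over 13 alternatives, with 3777 higher and 3903 lower after median-ratio rescaling, and the count in the dynein lists from 31 to 42. With each library left out, the dynein list genes called higher numbered 9 to 14 and all called 31 to 38. Of the 10 members, 5 to 7 were called. Stricter peaks left 15 of 23 in the shALKBH5 list and 19 of 23 in the shCtrl list, and a reciprocal overlap of 50% lowered the overlapping shares to 69.6 and 73.9%, and those of all peaks to 51.6 and 53.7%. The cause was not tested.

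Rescaling moved DYNLRB1 to 2.59, DYNLL1 to -0.37, DYNLL2 to 1.06, DYNLT1 to 0.08, DYNC1H1 to -0.10 and DCTN1 to -0.35, and a pseudocount of 1 moved DYNLRB1 to 2.54 and DYNLL2 to 1.02, beyond 1 SD between libraries. DYNC1H1 alone among the members changed sign, to 0.002 without shCtrl replicate 2. Alternatives were run for ALKBH5, the pathway genes named, the 3 of like profile and the 10 neighbours, 40 genes with a test, and not for the markers, NRAV and DYNC1I2P1. Of the 40, 34 were called, 28 of these in every alternative run, 6 lost the call in at least 1 and none of the 34 reversed. A further 3 gained a call in 1.

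The replicate numbers did not pair the libraries, since same-numbered libraries correlated in their deviations at 0.02, -0.05 and 0.06, and only number 3 was closest to its own number in both groups. With the replicate block the calls were 7271 in all, 31 in the dynein lists and 5 among the members.

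FPKM without counts gives no counting error, 3 libraries a group limit the precision, the kind of replicate is unknown, and peaks have no replicates. ITCH overlaps DYNLRB1, and its part in the peaks was not tested.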
